A study of Saccharomyces cerevisiae with 8 samples.

Results

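The histone genes of Saccharomyces cerevisiae were followed by RNA sequencing in a strain without the polyphosphatase gene PPN1 and in its PPN1-overexpressing derivative, each grown in control medium and in manganese excess. The 10 genes, taken by identifier from the 7126 genes in the count tables, were the 8 core histone genes, namely HTA1 (YDR225W) and HTA2 (YBL003C) for H2A, HTB1 (YDR224C) and HTB2 (YBL002W) for H2B, HHT1 (YBR010W) and HHT2 (YNL031C) for H3 and HHF1 (YBR009C) and HHF2 (YNL030W) for H4, together with HHO1 (YPL127C) for linker histone H1 and HTZ1 (YOL012C) for the H2A variant H2A.Z. All 10 passed the filter on low counts in every comparison. The parent, CRN, is MATa ade2 his3 ura3 with PPN1 replaced by CgTRP1, although the labels' genotype field calls it wild type. CRN/PPN1 is the same strain carrying the vector pMB1/PPN1 Sc, so both strains lack the chromosomal PPN1 and share the other markers. Control medium was YPD with 14 mM KH2PO4, and manganese medium was the same with 5 mM MnSO4. Both strains grew for 12 h in control medium, whereas in manganese CRN grew for 40 h and CRN/PPN1 for 16 h, so that growth time cannot be told apart from the medium and, in manganese, from the strain. Each of the 4 groups had 2 libraries, from cultures grown at the same time.

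An octamer of the core histones H2A, H2B, H3 and H4 wraps DNA into the nucleosome. In budding yeast each core histone is encoded by a pair of gene copies, arranged as divergent H2A-H2B and H3-H4 pairs that share an intergenic region. The activator Spt10 binds upstream activating sequences in these regions and the genes are transcribed mainly around the G1/S transition. The HIR complex, a corepressor with histone chaperone activity, represses the divergent pairs outside S phase except HTA2-HTB2. Yeast histone mRNAs are polyadenylated, unlike the replication-dependent histone mRNAs of animals. H1 binds linker DNA, and H2A.Z replaces H2A in the nucleosomes that flank many promoters.

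The shared intergenic regions are shown because the results turn on the copies at these loci. Their activating element was searched on both strands as TTCC and TTCNC spaced by NNNNNN in the RefSeq R64 genome, the build of the count tables, which may differ from the CRN genome. The region between HTB1 and HTA1, 817 bp at chrIV:914713-915529, held 2 matches. The region between HTA2 and HTB2, 699 bp at chrII:235793-236491, held 1, as did the 646 bp between HHF1 and HHT1 at chrII:255685-256330 and the 676 bp between HHT2 and HHF2 at chrXIV:576051-576726. No match lay in the 817 bases upstream of HHO1 or HTZ1. Of 6022 such upstream windows over all genes, 4.749% held a match. The stretches around the matches are given on the plus strand, with the matches in capitals; a capital run that begins with G is a match on the minus strand.
HTB1-HTA1, chrIV:915084-915181: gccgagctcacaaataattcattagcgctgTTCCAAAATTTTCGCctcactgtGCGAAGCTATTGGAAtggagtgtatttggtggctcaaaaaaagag
HTA2-HTB2, chrII:236078-236152: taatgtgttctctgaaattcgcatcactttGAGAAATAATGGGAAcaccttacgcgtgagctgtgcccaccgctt
HHF1-HHT1, chrII:255914-255988: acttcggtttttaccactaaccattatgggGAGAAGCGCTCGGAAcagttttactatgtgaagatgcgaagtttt
HHT2-HHF2, chrXIV:576316-576390: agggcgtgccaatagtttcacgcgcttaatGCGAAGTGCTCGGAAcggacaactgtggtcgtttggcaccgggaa
The first HTB1-HTA1 match lay 401 bases from each of its start codons. The HTA2-HTB2 match lay 315 bases from the HTA2 start codon and 369 from that of HTB2. Of the G1/S motifs, the MCB element ACGCGT matched once in the HTA2-HTB2 region and in no other histone region, beside 7.672% of all upstream windows. The SCB element, searched as CNCGAAA, matched 3 times between HTB1 and HTA1 and 2 times between HHT2 and HHF2. It also matched 1 time in the 817 bases upstream of each of HHO1 and HTZ1, beside 30.14% of all windows. A match is a string of letters and not a measured binding site.

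The copies of a core histone are equal in coding length, so that a ratio of copies within a library does not depend on the scaling between libraries or on coding length. Lengths of whole transcripts were not compared. HTA1 (chrIV:915530-915928, plus strand) and HTA2 (chrII:235394-235792, minus strand) are 399 bp each and differed at 25 bases, which change 2 of 132 residues. HTB1 (chrIV:914317-914712, minus strand) and HTB2 (chrII:236492-236887, plus strand) are 396 bp each and differed at 48 bases, which change 4 of 131 residues. The H3 copies, HHT1 (chrII:256331-256741, plus strand) and HHT2 (chrXIV:575640-576050, minus strand), 411 bp each, differed at 28 bases and encode the same protein. The H4 copies, HHF1 (chrII:255373-255684, minus strand) and HHF2 (chrXIV:576727-577038, plus strand), 312 bp each, differed at 8 bases and also encode the same protein. HHO1 (chrXVI:308828-309604, minus strand) is 777 bp and HTZ1 (chrXV:303579-303983, minus strand) 405 bp. Each is a single coding exon and no other annotated gene overlaps it. The first 120 coding bases of the H2A and H2B copies are given to show how far reads can tell them apart, with the bases that differ between copies in capitals.
HTA1, chrIV:915530-915649, plus strand: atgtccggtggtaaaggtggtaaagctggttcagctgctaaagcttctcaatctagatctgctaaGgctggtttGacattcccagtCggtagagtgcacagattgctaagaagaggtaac
HTA2, chrII:235673-235792, minus strand: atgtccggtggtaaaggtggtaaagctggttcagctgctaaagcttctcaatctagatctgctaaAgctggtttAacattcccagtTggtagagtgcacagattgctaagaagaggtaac
HTB1, chrIV:914593-914712, minus strand: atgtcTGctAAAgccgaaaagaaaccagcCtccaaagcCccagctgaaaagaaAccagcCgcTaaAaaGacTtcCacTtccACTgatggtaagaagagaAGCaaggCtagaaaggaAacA
HTB2, chrII:236492-236611, plus strand: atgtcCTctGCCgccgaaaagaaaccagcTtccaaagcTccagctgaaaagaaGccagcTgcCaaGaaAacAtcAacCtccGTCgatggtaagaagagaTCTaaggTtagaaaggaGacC
In these stretches the H2A copies differed at 3 bases and the H2B copies at 24. Only reads with a single place in the genome were counted. For reads of 50 bases, 95.4% of the start positions in each H2A copy, 100% in each H2B copy, 87.8% in each H3 copy and 78.7% in each H4 copy are unique in the genome, with equal numbers in both copies, and for reads of 75 bases the share is 97.5% for H4 and 100% for the others. The read length is not given in the sources used here. Levels of the H3 and H4 copies may therefore be understated by an amount common to both copies.

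The libraries held between 2309776 and 3579469 counts on genes. Of the reads, 6.40% to 8.71% mapped to several places. PPN1 had 3 to 39 counts in the CRN libraries and 7027 to 25525 in those of CRN/PPN1. The scaling factors of the TMM method, which sets the typical gene to no change, ranged from 0.508 to 1.63, and scaling to the library total instead moved the median of all genes by 1.48 on the log2 scale for manganese in CRN. Short genes were lower in manganese as a class. Of the 477 tested genes of up to 411 bp, the length of the longest core histone gene, 74.8% were called lower in CRN and 65.8% in CRN/PPN1.

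The core histone genes together took 1.11% and 1.05% of all gene counts in the CRN control libraries and 1.03% and 1.08% in those of CRN/PPN1. In manganese they took 0.231% and 0.270% in CRN and 0.407% and 0.401% in CRN/PPN1. The control libraries of both strains overlapped, the manganese libraries lay below them, and those of CRN lay below those of CRN/PPN1. The exact 95% binomial intervals were within 0.0123 percentage points of these shares and cover counting error only. In bulk RNA, fewer cells in S phase and less histone mRNA per cell cannot be told apart. The shares were not corrected for coding length or growth time, and the part of either in them was not tested.

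**Figure D1:**
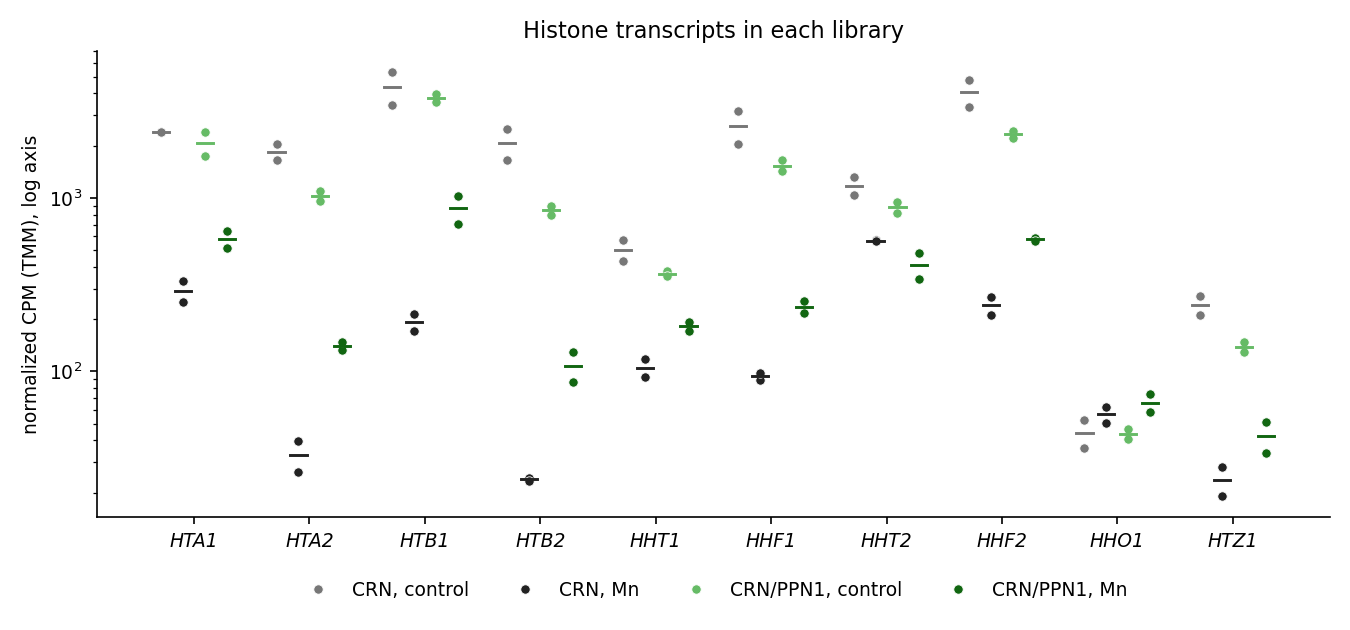
Normalized CPM (TMM scaling, log axis) of the 10 histone genes; each point is 1 library and each bar the mean of the 2 libraries of a group. HTB2 lies at 24.3 and 23.3 in CRN in manganese, below every other HTB2 library, while the HHO1 groups lie between 35.9 and 74.0.

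Levels are compared between genes per kb of coding length, as TMM-normalized CPM per kb. In CRN in control medium the order began with HHF2 at 13017 ± 3313 (SD, n = 2), followed by HTB1 at 11015 ± 3407 and HHF1 at 8359 ± 2531, and each of these overlapped its neighbour. HTA1 at 5982, HTB2 at 5230 and HTA2 at 4628 followed, and HTA1 lay within the range of HTB2. HHT2 at 2862 and HHT1 at 1220 stood apart below them, then HTZ1 at 599 and HHO1 at 56.7. In manganese the order in CRN was led by HHT2, at 1377 ± 13.0, above HHF2 at 772 ± 131 and HTA1 at 728 ± 142, which overlapped each other. HTB1 (486), HHF1 (300) and HHT1 (256) came next, and at the bottom lay HTA2 at 82.6, HHO1 at 72.6, HTB2 at 60.2 and HTZ1 at 58.0. There HTA2 overlapped HHO1, and HTB2 overlapped HTZ1. The second copies of the H2A and H2B genes were thus, in CRN in manganese, near the level per kb of the linker histone gene, which in control medium was the lowest of the family. These copies are 399 and 396 bp long and HHO1 is 777 bp. Short genes were lower in manganese as a class, which division by coding length does not remove in either strain. The part of length in this order was not tested.

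In CRN/PPN1 in control medium HTB1 was highest, at 9524 ± 760 normalized CPM per kb, above HHF2 at 7455 ± 447. HTA1 at 5188 and HHF1 at 4918 overlapped. HTA2 (2568), HHT2 (2152) and HTB2 (2135) followed, the last 2 overlapping, then HHT1 at 891, HTZ1 at 340 and HHO1 at 56.3. In manganese HTB1 at 2196 ± 566 and HHF2 at 1847 ± 39.9 overlapped at the top. HTA1 (1444), HHT2 (998), HHF1 (754), HHT1 (441), HTA2 (351) and HTB2 (273) followed without overlap between neighbours. HTZ1 at 105 and HHO1 at 84.9 overlapped at the bottom.

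The family was chosen by its genes' identifiers after the low HTB2 level of CRN in manganese had been seen, so the values of manganese against control in CRN are a description and carry no test. HTB2 had 2495 and 1647 normalized CPM in control and 24.3 and 23.3 with manganese excess, a log2 fold change of -6.44 ± 0.31 (SE). Its H2A neighbour HTA2 had 2048 and 1645 in control and 26.3 and 39.6 with manganese excess, a log2 fold change of -5.80 ± 0.28. Both manganese libraries of each gene lay far below both control libraries, and the 2 HTB2 values in manganese rest on 125 and 136 counts. HTB1, the other H2B copy, had 5316 and 3408 in control and 170 and 215 with manganese excess (log2 -4.50 ± 0.31). HTA1 had 2387 and 2386 in control and 250 and 331 with manganese excess (log2 -3.04 ± 0.25). Of the H4 genes, HHF1 stood at 3166 and 2050 against 89.3 and 97.6 (log2 -4.80 ± 0.27), and HHF2 at 4792 and 3330 against 212 and 270 (log2 -4.08 ± 0.27). The H3 genes were lower by less. HHT1 had 568 and 434 in control and 92.8 and 117 with manganese excess (log2 -2.25 ± 0.21). HHT2 had 1038 and 1315 in control and 570 and 562 with manganese excess (log2 -1.06 ± 0.22), the smallest difference among the core genes.

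Calls required an adjusted p not above 0.05 and a log2 fold change of 1 or more in either direction. In this comparison 9 of the 10 histone genes met both limits on the lower side, beside 24% of all 5778 tested genes, and nothing is read from that count. Their median log2 fold change was -3.72, against 0.09 over all tested genes and -3.08 over the 477 short genes. HHT2 was the gene nearest the limit of 1 among those inside it and HHO1, at 0.35 ± 0.25, the gene outside.

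The same contrast in CRN/PPN1 compares 4 other libraries, so these changes were tested, although the model's scaling, filter and estimate of the spread are shared with the CRN libraries. The genes were chosen with earlier results of these data known, so the adjusted p-values may not be free of that choice. Of the histone genes, 9 of 10 fell in manganese, beside 15.1% of all tested genes called lower. HTB2 had 900 and 791 normalized CPM in control and 129 and 86.5 with manganese excess. This was a log2 fold change of -2.97 ± 0.26 (SE), or 7.83-fold, with an adjusted p of 1.76e-06. HTA2 had 954 and 1096 in control and 133 and 148 with manganese excess (log2 -2.87 ± 0.24, 7.31-fold, adjusted p = 1.34e-06). For both genes of this divergent pair the libraries of the media lay far apart. HHF1 had 1648 and 1421 in control and 253 and 217 with manganese excess (log2 -2.71 ± 0.25, adjusted p = 2.26e-06). HHF2 had 2425 and 2227 against 585 and 568 (log2 -2.01 ± 0.25, adjusted p = 1.79e-05). The H4 copies thus fell with groups well separated. HTB1, at 3984 and 3559 against 1028 and 711, fell by 2.12 on the log2 scale (SE 0.28, adjusted p = 3.55e-05). HTA1, at 1749 and 2391 against 511 and 642, fell by 1.85 (SE 0.24, adjusted p = 3.22e-05). The H3 copies fell by the smallest amounts among the core genes, with HHT1 at 377 and 356 against 170 and 193 (log2 -1.01 ± 0.20) and HHT2 at 821 and 947 against 339 and 481 (log2 -1.11 ± 0.22), each at an adjusted p of 0.0011.

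The median of the 10 genes in CRN/PPN1 was -1.93, against 0.01 over all tested genes and -1.60 over the short genes. All p-values of single genes are from edgeR's quasi-likelihood F test with Benjamini-Hochberg adjustment over the 5778 genes. The H3 calls lay close to the limit of 1. HHT1 lost its call in 8 of 17 alternative settings, among them without CRN/PPN1 control replicate 1 (log2 -0.98), without CRN/PPN1 manganese replicate 1 (-0.91) and without either CRN manganese library (-0.998 each). HHT2 lost it in 3, among them without CRN/PPN1 manganese replicate 1 (-0.86).

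**Figure D2:**
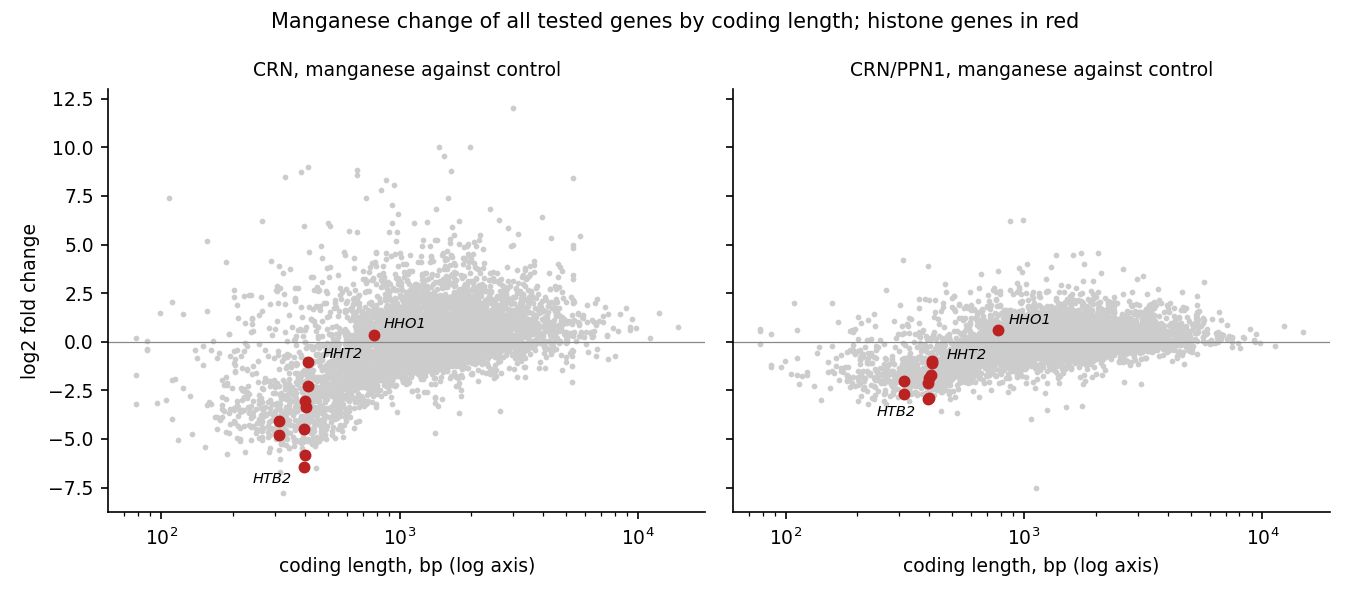
Log2 fold change in manganese against coding length (bp, log axis) for the tested genes with a coding length, in CRN (left) and CRN/PPN1 (right); grey points are other genes and red points the histone genes, of which 3 are labelled. The core histone genes, 312 to 411 bp long, lie among short genes that are mostly lower in manganese. Of the core genes HTB2 is the lowest in both strains, and the highest is HHT2 in CRN and HHT1 in CRN/PPN1. HHO1, at 777 bp, lies near 0.

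Coding length moved with these changes, and its part in them was not tested directly. When a smooth trend of each library on coding length was removed, in a fit over 5537 genes, 3 histone genes remained called lower in CRN/PPN1, beside 5.74% of all genes. These were HTB2 (log2 -1.71 ± 0.21), HTA2 (-1.63 ± 0.18) and HHF1 (-1.15 ± 0.18). In CRN the 4 genes HTB2 (-3.89), HTA2 (-3.31), HTB1 (-1.96) and HHF1 (-1.69) were lower past the limits, beside 18%, and HHT2 was higher, at 1.37 ± 0.22, beside 23%. With the trend removed HHT1 stood at 0.20 in both strains, on the other side of 0 from its uncorrected value. Over the 17 alternative settings in CRN/PPN1, the log2 fold change of HTA2 ranged from -2.97 to -1.63. That of HTB2 ranged from -3.27 to -1.71 and that of HHF1 from -2.81 to -1.15. In CRN, as a description, the ranges were -6.10 to -3.31, -6.71 to -3.89 and -5.08 to -1.69.

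The ratio of copies in each library is free of both scaling and coding length. It is given for the 4 histones without a test, since 2 libraries against 2 cannot reach an exact two-sided permutation p below 0.333, and the CRN manganese libraries also led to the choice of genes. For H2A, HTA1 over HTA2 was 1.17 and 1.45 in CRN in control and 9.53 and 8.35 with manganese excess. In CRN/PPN1 it was 1.83 and 2.18 in control and 3.85 and 4.35 with manganese excess. The 4 groups did not overlap, and their mean log2 ratios were 0.38 ± 0.22 (SD, n = 2), 3.16 ± 0.13, 1.00 ± 0.18 and 2.03 ± 0.12 in the same order. HTA2 thus took a smaller part of the H2A counts in manganese in both strains, and in control medium a smaller part in CRN/PPN1 than in CRN.

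For H2B, HTB1 over HTB2 was 2.13 and 2.07 in CRN in control and 6.98 and 9.21 with manganese excess. In CRN/PPN1 it was 4.43 and 4.5 in control and 7.94 and 8.22 with manganese excess. Mean log2 ratios were 1.07 ± 0.030, 3.0 ± 0.28, 2.16 ± 0.016 and 3.01 ± 0.036. The control groups of the strains stood apart by about 1 on the log2 scale with small spread, whereas the manganese groups overlapped. In both strains the copy at the HTA2-HTB2 locus lost relative to the copy at the HTA1-HTB1 locus in manganese.

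For H4, HHF1 over HHF2 was 0.661 and 0.615 in CRN in control and 0.421 and 0.362 with manganese excess. In CRN/PPN1 it was 0.680 and 0.638 in control and 0.433 and 0.382 with manganese excess. Mean log2 ratios were -0.65 ± 0.072, -1.36 ± 0.16, -0.60 ± 0.065 and -1.30 ± 0.13. Here the media separated and the strains overlapped in each medium. For H3, HHT1 over HHT2 was 0.547 and 0.33 in CRN in control and 0.163 and 0.209 with manganese excess. It was 0.459 and 0.376 in CRN/PPN1 in control and 0.501 and 0.400 with manganese excess. Mean log2 ratios were -1.23 ± 0.52, -2.44 ± 0.25, -1.27 ± 0.20 and -1.16 ± 0.23. Only the CRN manganese libraries lay outside the others for H3, and the 2 CRN control libraries differed from each other by more than those of any other pair and group.

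**Figure D3:**
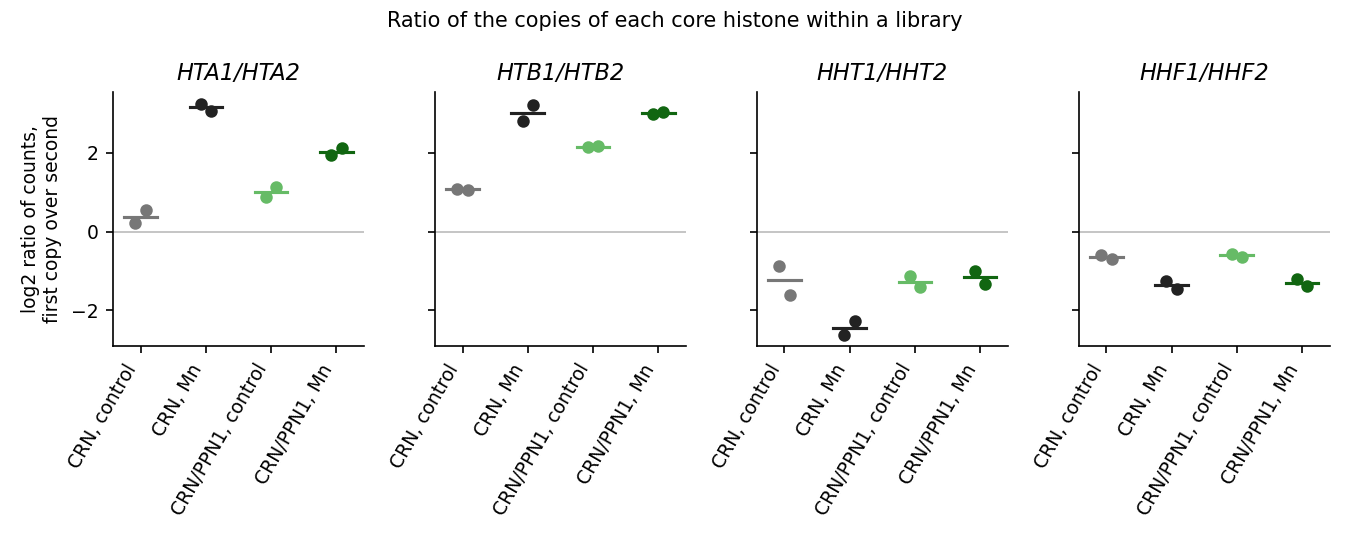
Log2 ratio of the counts of the first over the second gene copy of H2A, H2B, H3 and H4, by group; each point is 1 library and each bar the mean of 2. HTA1/HTA2 and HTB1/HTB2 are higher in manganese in both strains, HHF1/HHF2 is lower in manganese in both, and HHT1/HHT2 is lower in CRN in manganese only.

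The genes that share an intergenic region were also compared within libraries, a comparison chosen after the values were seen. The ratio HTA2/HTB2, of 399 and 396 bp, was 0.821 and 0.999 in CRN in control and 1.08 and 1.70 with manganese excess. It was 1.06 and 1.38 in CRN/PPN1 in control and 1.03 and 1.71 with manganese excess. Both genes were lower in manganese by similar amounts, and the ratios overlapped between the media in CRN/PPN1. HTA1/HTB1 in control medium was 0.449 and 0.700 in CRN and 0.439 and 0.672 in CRN/PPN1, and it was 0.497 and 0.902 in CRN/PPN1 in manganese. In CRN in manganese it was 1.47 and 1.54, above the other 6 libraries, so that HTB1 was lower than HTA1 only there. In the H3-H4 pairs the lengths differ. HHT1/HHF1 was between 0.179 and 0.251 in the control libraries, 0.670 and 0.888 in CRN/PPN1 in manganese and 1.04 and 1.20 in CRN in manganese. HHT2/HHF2 was between 0.217 and 0.425 in the control libraries, whereas manganese gave 0.579 and 0.848 in CRN/PPN1 and 2.69 and 2.08 in CRN. In both H3-H4 pairs the longer H3 gene gained on the H4 gene in manganese, and more in CRN than in CRN/PPN1.

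The strains were compared within each medium. Each of these comparisons shares 2 CRN libraries with the one through which HTB2 was noted, so the values are described without a test. In control medium HTB2 stood at 2495 and 1647 normalized CPM in CRN and at 900 and 791 in CRN/PPN1, a log2 fold change of -1.29 ± 0.24 (SE), or 2.45-fold lower. It was the 1 histone gene past both limits, beside 4.45% of all tested genes called lower, and nothing is read from that count. HTB2 was no longer past them without CRN control replicate 1 (log2 -0.96) or without CRN/PPN1 control replicate 2 (log2 -1.20), with the length trend removed (log2 -0.78, with 1.32% of all genes then called lower) or with scaling to the library total (log2 -0.75). Without CRN control replicate 2 there were 3 genes past the limits, with HHF1 and HHF2 (both -1.04). Its neighbour HTA2 (-0.85 ± 0.22), HTZ1 (-0.81 ± 0.24), HHF2 (-0.80 ± 0.24) and HHF1 (-0.77 ± 0.23) had smaller differences. HTA1 and HTB1, the pair at the other H2A-H2B locus, had log2 fold changes of -0.21 ± 0.23 and -0.21 ± 0.27, with overlapping groups. The median of the 10 histone genes was -0.61, beside -0.41 over the 477 short genes, of which 14.9% were called lower. The values of HTA1, HTB1, HHT1, HHT2 and HHO1 changed sign with the length trend removed or with scaling to the library total.

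In manganese 5 of the 10 genes were past both limits on the higher side in CRN/PPN1, beside 10.4% of all tested genes called higher and 47.4% of the short genes, and nothing is read from that count. HTB2 had 24.3 and 23.3 normalized CPM in CRN and 129 and 86.5 in CRN/PPN1, a log2 fold change of 2.18 ± 0.27, or 4.53-fold. HTB1 (2.18 ± 0.28, 4.52-fold) and HTA2 (2.08 ± 0.24, 4.24-fold) differed by nearly the same factor. HHF1 (1.33 ± 0.24) and HHF2 (1.26 ± 0.24) were the other 2 past the limits, and HHF2 was not with scaling to the library total (0.95). HTA1 at 0.99 ± 0.24, HTZ1 at 0.85 ± 0.26 and HHT1 at 0.79 ± 0.20 were under the limit on the fold, which HTA1 (1.21 and 1.16) and HTZ1 (1.16 and 1.13) exceeded without CRN manganese replicate 2 and without CRN/PPN1 manganese replicate 1. HHT2 was the single core gene with a lower value in CRN/PPN1, -0.46 ± 0.22, where 7.37% of all tested genes were called lower. With the length trend removed HTB1 (1.42), HTB2 (1.41) and HTA2 (1.34) were past the limits, beside 5.47% of all genes, and HHF1 and HHF2 were not. HHT2 was then past them on the lower side, at -1.21 ± 0.22, beside 8%.

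**Figure D4:**
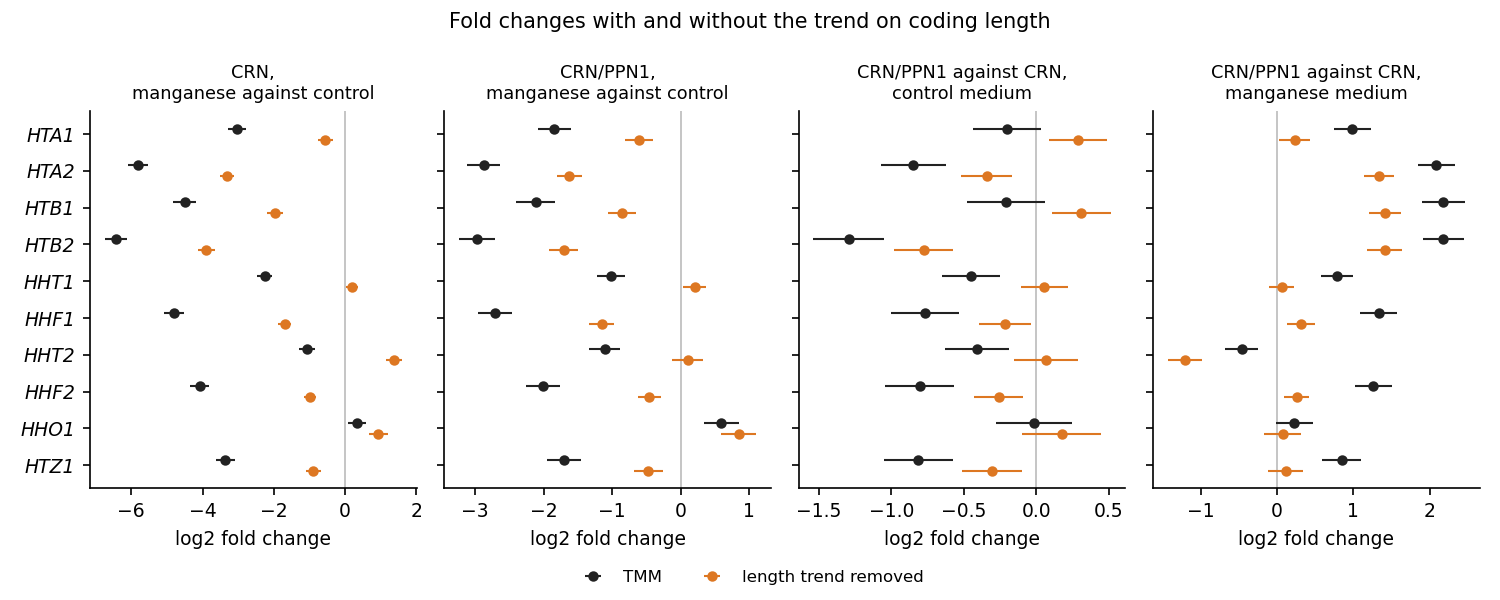
Log2 fold change of each histone gene in the 4 comparisons, with TMM scaling (black) and with the trend on coding length removed (orange); bars are standard errors. HTA2 and HTB2 stay well below 0 for manganese in both strains in both fits, whereas HHT2 for manganese in CRN moves from -1.06 to 1.37.

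The difference between the strains in their response to manganese contains the comparison through which the family was noted, so it is described without a test. Of the 10 genes, 8 passed both limits with a smaller drop in CRN/PPN1, beside 15% of all tested genes called in that direction, and nothing is read from that count. The drop on the log2 scale was smaller in CRN/PPN1 by 3.47 ± 0.36 for HTB2, 2.93 ± 0.33 for HTA2, 2.39 ± 0.39 for HTB1, 2.10 ± 0.34 for HHF1, 2.06 ± 0.34 for HHF2 and 1.19 ± 0.33 for HTA1. For HHT2 the strains were alike in value, with a difference of -0.053 ± 0.31. With the length trend removed 3 passed both limits on that side (beside 10.2%) and HHT2 on the other (beside 10.7%). The value was then 2.19 for HTB2, 1.68 for HTA2 and 1.11 for HTB1, that of HTA1 was -0.056 and that of HHT2 was -1.27.

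HHO1 and HTZ1 did not follow each other. HHO1, for linker histone H1, had 35.9 and 52.3 normalized CPM in CRN in control and 62.5 and 50.4 with manganese excess. In CRN/PPN1 it had 46.5 and 40.9 in control and 57.9 and 74.0 with manganese excess (log2 0.59 ± 0.25, adjusted p = 0.0748). The CRN groups overlapped and the CRN/PPN1 groups did not, and these levels rest on 58 to 321 counts per library. HTZ1, for H2A.Z, had 273 and 212 in CRN in control and 19.1 and 27.9 with manganese excess. In CRN/PPN1 it had 129 and 147 in control and 34.0 and 51.0 with manganese excess, and fell by 1.70 on the log2 scale (SE 0.25, adjusted p = 8.26e-05). HTZ1 is close in length to the core genes, and with the length trend removed its change in CRN/PPN1 was -0.47 ± 0.22 (adjusted p = 0.11). Scaling to the library total put HHO1 past the limits on the higher side in both strains, at 1.81 in CRN and 1.26 in CRN/PPN1.

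Genes that act on histones were counted in lists. Of 12 regulators of histone gene transcription, 7 were higher in manganese in CRN, beside 24.7% of all tested genes called higher, with a median log2 fold change of 1.08. The 2 with the largest change were SPT10, encoding the activator named above (2.04 ± 0.42), and SWI6, encoding the shared subunit of the G1/S factors SBF and MBF (1.56 ± 0.21). With the length trend removed 2 stayed higher, SPT10 (1.41) and the histone chaperone gene ASF1 (1.45), and 1, HIR2 of the HIR complex, was lower (-1.72), beside 23% and 18% of the genes in that fit. In CRN/PPN1 in manganese 1 of 12 rose, ASF1 (1.05 ± 0.27, adjusted p = 0.0055), beside 10.1% of all genes. Between the strains in control medium the 12 values ranged from -0.81 (ASF1) to 0.60 (SPT10). In manganese HIR1, another HIR subunit gene, was lower in CRN/PPN1 (-1.14 ± 0.29), but was not called with the length trend removed (-0.85).

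Of 14 tested genes for chaperones, importins and acetyltransferases of new histones, 2 were higher and 2 lower in manganese in CRN, beside 24.7% and 24% of all tested genes. Those with the largest change were VPS75, a chaperone gene whose product works with the acetyltransferase Rtt109 (-2.03 ± 0.26), and CAC2, a subunit gene of chromatin assembly factor 1 (1.75 ± 0.31). In CRN/PPN1 in manganese RTT109 fell (-1.16 ± 0.37, adjusted p = 0.0206) and no other did. VPS75 was higher in CRN/PPN1 than in CRN in manganese (1.23 ± 0.25). For manganese in CRN the fit without the length trend had 1 gene of this list higher and 5 lower, beside 23% and 18%. The importin gene KAP123, called lower in both fits, then had the lowest value, at -2.11. Of 11 genes for H2A.Z exchange, 4 were higher and 1 lower in manganese in CRN, beside 24.7% and 24% of all tested genes. VPS72, encoding the SWR1 complex subunit that binds H2A.Z, was higher (2.52 ± 0.23), and CHZ1, encoding a chaperone of H2A.Z and H2B and only 462 bp long, was lower (-2.67 ± 0.21). CHZ1 also fell in CRN/PPN1 (-1.33 ± 0.20, adjusted p = 0.000113), but with the length trend removed it stood at -0.47 and -0.24 in the 2 strains. SWC4, for another SWR1 subunit, was lower in CRN/PPN1 than in CRN in manganese (-1.46 ± 0.36).

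Of 21 genes transcribed at G1/S or used in DNA replication, 5 were higher and 2 lower in manganese in CRN, beside 24.7% and 24% of all tested genes, with a median of 0.26. In CRN/PPN1 1 rose and 1 fell, beside 10.1% and 15.1%, with a median of -0.11. RFA3, the 369 bp gene of the small subunit of replication protein A, fell in both (-3.11 ± 0.25 and -1.61 ± 0.23), and CDC9, for DNA ligase, rose in both (1.92 ± 0.23 and 1.21 ± 0.22). With the length trend removed RFA3 stood at -0.45 and -0.28 and was called in neither strain. CDC9 then stood at 1.23 and 0.89 and was called in CRN alone. The other gene lower in CRN was CLN1, a G1 cyclin gene (-1.76 ± 0.20). Without the length trend 3 genes of the list were lower in CRN, CLN1 (-2.29), CLB5 (-1.32) and CLN2 (-1.18), beside 18% of the genes in that fit. There 2 were higher, SVS1 (1.85) and CDC9, beside 23%. CLN1 was higher in CRN/PPN1 than in CRN in manganese (1.52 ± 0.20) and CDC45, a replication initiation gene, lower (-1.35 ± 0.32). Among 4 other chromatin protein genes, the short genes NHP6A and NHP6B for high mobility group proteins fell in manganese, with log2 fold changes of -3.66 and -3.58 in CRN and -2.04 and -1.64 in CRN/PPN1. Neither was called once the length trend was taken out. HMO1, for another high mobility group protein, was lower in CRN (-1.81 ± 0.23) and stayed called without the trend (-1.07). CSE4, for the centromeric H3 variant, did not pass the limits in any comparison, with log2 fold changes in manganese of -0.80 ± 0.22 in CRN and 0.13 ± 0.23 in CRN/PPN1.

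Likeness to the family was measured as Pearson's r of log2 CPM with the mean of the 8 core genes over the 8 libraries, as a description, since the points share their libraries and the scaling. HHT2 had an r of 0.79 and HHO1 of -0.69, and the other 8 genes ranged from 0.98 to 1.00. Each core gene is itself part of that mean, which raises its r, whereas HHO1, HTZ1 and the genes outside the family are not. Outside the family the 5 genes most alike were VMA10 (r = 0.9996), TOM6, CHP1, TIM10 and RIM1, which encode respectively a vacuolar ATPase subunit, a mitochondrial outer membrane import protein, a small cytosolic chaperone, a mitochondrial inner membrane import chaperone and a mitochondrial single-stranded DNA binding protein. Their coding lengths were 345, 186, 441, 282 and 408 bp. Of 4333 genes eligible for this ranking, 594 (13.7%) reached an r of 0.95.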

How the data were processed

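RNA of 8 libraries was sequenced with single-end reads. The authors used Trimmomatic 0.36 for trimming and STAR 2.5.3a for mapping and counting, against the Ensembl annotation of R64 (sacCer3). The deposited counts are whole reads per gene without normalization, reads that map to several places are not counted, and replicates are not pooled. Of the 3 count columns of a library, that of the opposite strand was used, since it equals the deposited table of the series in 57008 of 57008 values. It held 90.7% to 93.3% of the stranded counts. The 4 lines that name no gene were left out. They held 25.8% to 34.6% of the reads, which were unmapped, mapped to several places, on no gene or ambiguous between genes.

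The tests used edgeR 4.0.16 in R 4.3.3. The filter kept the 5778 genes that reached 2 CPM in 4 or more libraries, and scaling was by TMM. A model of 4 groups without a replicate block was fitted by the quasi-likelihood method in its older form, with Benjamini-Hochberg adjustment over all tested genes and two-sided p-values. Standard errors were derived from the F statistic. The replicates were 2 cultures of each group grown at the same time. The common biological coefficient of variation was 0.18. The main fit, the DESeq2 fit and the fit with the length trend removed were run on simulated data, for manganese in CRN/PPN1 only. The other steps were not. Alternatives were DESeq2 1.42.0, scaling to the library total, upper quartile factors, no filter on low counts, counts on either strand, a loess trend on coding length removed, edgeR's newer form, a replicate block, no limit on the fold and leaving out each library.

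The members and gene lists were chosen with earlier results of these data known. All 10 members are named; of each list, the 2 called genes with the largest absolute log2 fold change in a comparison, besides CSE4 and PPN1; and the 5 genes most like the core genes. ASF1, HIR2, CLN1, CLN2, CLB5, SVS1 and KAP123 in the length correction and CLN1 for manganese in CRN fall outside this rule. So do HMO1 and the list gene KAP121, which matched no symbol in the data. Sequences were read from the RefSeq R64 genome.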

Additional observations from a re-analysis of the deposited data

Results flagged for a closer look

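The interaction of strain and medium passed both limits for 8 of the 10 histone genes, all with a smaller drop in CRN/PPN1, beside 15% of all tested genes called in that direction. Nothing is read from this count, since the interaction holds the comparison through which the family was noted. The values on the log2 scale were 3.47 for HTB2, 2.93 for HTA2, 2.39 for HTB1, 2.10 for HHF1, 2.06 for HHF2, 1.66 for HTZ1, 1.24 for HHT1 and 1.19 for HTA1. Growth time differed between the strains in manganese, 40 h and 16 h, and its part cannot be told apart from that of the strain. Of the 477 short genes, 56.0% were called in the same direction, with a median of 1.44 beside 1.86 for the histone genes, and the part of length was not tested directly.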

How the results depend on the processing

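Over the 17 alternatives the highest log2 fold changes for manganese in CRN/PPN1 were -1.63 for HTA2, -1.71 for HTB2 and -1.15 for HHF1. In CRN they were -3.31, -3.89 and -1.69. Between strains in manganese the lowest values were 1.34 for HTA2, 1.42 for HTB1 and 1.41 for HTB2. The values that involve the CRN manganese libraries are a description and carry no test. Removing the length trend left 4 genes lower and 1 higher in CRN in manganese (9 and 0 otherwise), 3 lower in CRN/PPN1 in manganese (9), 0 lower between strains in control medium (1), 3 higher and 1 lower in manganese (5 and 0) and 4 in the interaction (8). It reversed HHT1 to 0.20 in each strain, HHT2 to 1.37 in CRN and 0.10 in CRN/PPN1, and, between strains in control medium, HTA1 to 0.29, HTB1 to 0.31, HHT1 to 0.056, HHT2 to 0.064 and HHO1 to 0.17. In the interaction it reversed HTA1 to -0.056 and HHO1 to -0.0997. Scaling to the library total, which moved the median of all genes by 1.48, 0.67, 0.51, -0.31 and -0.82 in the 5 comparisons, left 7 genes lower in manganese in each strain (9), without HHT1 (-0.74 in CRN and -0.35 in CRN/PPN1) and HHT2 (-0.44 in CRN/PPN1), and 4 higher between strains in manganese (5), without HHF2 (0.95). It gave 1 gene higher in manganese in each strain, 0 lower between strains in control medium and 5 in the interaction. It reversed HHT2 in CRN to 0.41, HTA1, HTB1, HHT1, HHT2 and HHO1 between strains in control medium to 0.31, 0.33, 0.077, 0.078 and 0.47, and HHO1 to -0.084 between strains in manganese and to -0.55 in the interaction. Values near 0 also changed sign with upper quartile factors (HHO1 0.077) and counts on either strand (HHO1 0.011) between strains in control medium, and with DESeq2 (HHT2 0.0099) in the interaction. Without a limit on the fold, 5 genes were lower between strains in control medium and 8 higher in manganese. When 1 library was left out at a time, the count between strains in control medium ranged from 0 to 3, HTA1 from -0.45 to 0.0059, HTB1 from -0.49 to 0.15 and HHO1 from -0.25 to 0.28, while in the interaction HHT2 ranged from -0.34 to 0.17 and HHO1 from -0.058 to 0.48. The cause of these shifts was not tested. The core share without the 100 genes with the most counts in its denominator was 2.23% and 0.300% in CRN in control medium and manganese, and 1.90% and 0.563% in CRN/PPN1. The control libraries then did not overlap between the strains, at 2.42% and 2.03% in CRN and 1.89% and 1.91% in CRN/PPN1. Nothing in the labels says that replicate numbers pair cultures, and the correlation of replicate differences between groups was 0.04 to 0.22. With a replicate block the counts were 9 lower in manganese in each strain, 1 lower and 5 higher between strains in control medium and manganese, and 8 in the interaction, as without it. The lowest totals, 2309776 counts, and the 125 counts of HTB2 in a CRN manganese library limit the precision of single values.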
